A study of Homo sapiens with 8 samples.

Results

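KOPN-8 cells held 1161 dense stretches of open chromatin, in which 5 or more open regions followed each other with gaps of 12500 bp or less. They were built from the 2 ATAC-seq libraries of KOPN-8 cells with an empty guide vector: the 2 peak lists were merged where peaks shared at least 1 bp, autosomal regions called in both lists were kept, neighbours were joined and groups of at least 5 regions were retained. These stretches held 7426 of the 52036 autosomal regions called in both lists, or 14.3%. The other 44610 regions lay alone or in smaller groups. The members were thus selected on the peak calls of the 2 KOPN-8 control lists, and the values of those lists are given as a description. Built from control 2 or control 1 alone, they numbered 1698 or 1947.

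Open chromatin was profiled by ATAC-seq, where a transposase inserts adapters into exposed DNA, in 8 libraries. They came from KOPN-8 and 697, established cell lines of B-lineage acute lymphoblastic leukaemia. KOPN-8 carries a KMT2A::MLLT1 fusion. Each line gave 2 libraries from 1 clone that had received an sgRNA against SETD2, clone BA in KOPN-8 and clone BM_B in 697, both labelled as heterozygous knockouts, and 2 libraries from cells with the empty sgRNA vector, labelled SETD2 wild type. SETD2 encodes the methyltransferase that places the trimethyl mark on lysine 36 of histone H3 along transcribed genes. Since each knockout group is 1 clone, other differences between that clone and the control cells cannot be told apart from the effect of the edit. The 2 libraries of each group are labelled biological replicates, with nothing said on how the cultures were kept apart, so p-values measure only the spread between these libraries, which may be technical. The lists of the KOPN-8 clone held 67301 and 64667 peaks and those of the KOPN-8 controls 70430 and 63585, while the lists of the 697 clone held 63012 and 76495 and those of the 697 controls 57154 and 70099. Read depth is unknown. Neither the lineage of the lines nor the edit was checked at marker genes, because no gene annotation in hg19, the build of the lists, was used here.

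Clusters of enhancers that lie close together along the genome are often called super-enhancers when they also carry unusually high levels of H3K27 acetylation or Mediator, and they are known for lying near genes that set the identity of a cell. Joining enhancers over the distance used here is a common first step in finding them. Open chromatin marks promoters, insulators and enhancers alike, and no histone mark was measured, so the stretches are described as dense groups of open regions and nothing more. Every position below is in hg19, counted from 1.

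The stretches were short and mostly just above the minimum. Of the 1161, 529 held 5 regions, 265 held 6, 287 held 7 to 9 and 80 held 10 or more. A further 1036 groups of 4 regions lay just outside the rule. The median stretch held 6 regions over 27.7 kb, the shortest spanned 2.6 kb and the longest 109.8 kb, and together they covered 34.5 Mb. Neighbouring regions inside a stretch were separated by a median of 4748 bp, against 19260 bp between neighbours over all regions called in both controls. Member regions took up a median of 10.9% of their stretch, so most of the DNA within it was not called as open.

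**Figure D1:**
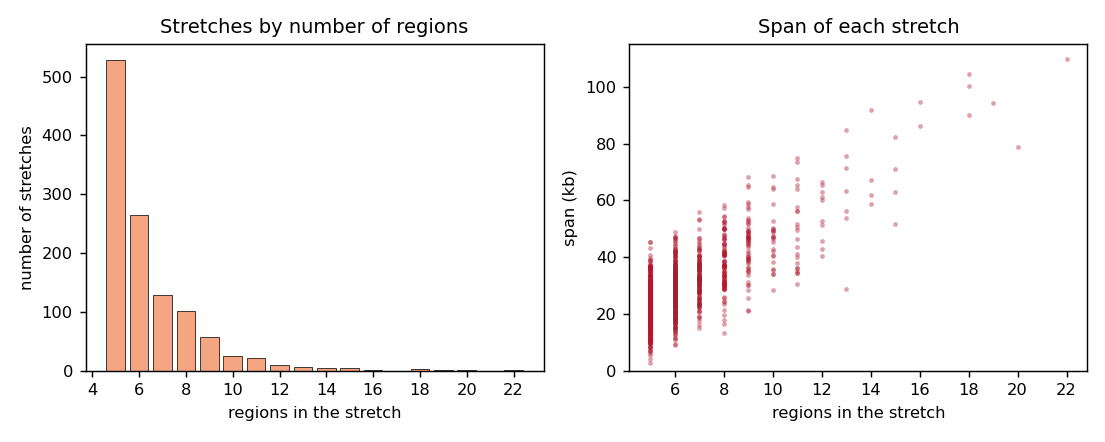
The left panel counts the stretches of the KOPN-8 controls by their number of regions, and the right panel plots the span in kb of each stretch against its number of regions, 1 point per stretch. Bars fall from 529 stretches of 5 regions, and the single stretch of 22 regions has the longest span, 109.8 kb.

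The regions that made up the stretches were not the strongest of the lists. The authors deposited a value for each peak without naming its unit, and it was read here as a fold over background. It was turned into a percentile within its list, and each region was given the smaller of its 2 percentiles in the KOPN-8 controls. This smaller percentile had a median of 43.4 in member regions and 54.8 in the other regions, while the median width was 422 bp in members and 430 bp in the others. In the KOPN-8 clone, whose lists the rule did not use, called members had median percentiles of 56.2 and 54.2 in the 2 lists and called others 65.5 and 64.5. In the 697 clone the medians were 56.7 and 61.9 in called members and 69.3 and 72.2 in called others, and in the 697 controls 56.7 and 59.5 against 68.6 and 71.1. In each of these 6 lists the called members stood lower than the called others. Strength fell steadily as groups grew: the median smaller percentile was 58.4 for regions that stood alone, 48.2 for those in groups of 4, 45.7 for groups of 5 and 36.5 for groups of 11 or more. By this value, the dense stretches of KOPN-8 were thus made by many moderate regions side by side. How the background was set is not known, so a lower value is not shown to be a weaker signal. Within a stretch, the first and last regions had a median smaller percentile of 49.9 and the inner regions 40.1. Below, the strongest member of a stretch is the one with the highest smaller percentile, and the weakest the one with the lowest.

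Stretches were found on all 22 autosomes, and their share of a chromosome's regions varied more than 2-fold. Chromosomes 10 and 19 had the highest shares, with 502 of 2607 regions (19.3%) and 306 of 1599 (19.1%) in stretches. Chromosomes 22 and 20 had the lowest, with 57 of 693 (8.23%) and 112 of 1309 (8.56%). The number of genes on a chromosome gave no simple order: chromosome 19 has 1451 protein-coding genes and chromosome 10 has 734 in the RefSeq table of GRCh38, which was used only for these counts, and chromosome 22 has 451. The most stretches in absolute number lay on chromosome 2, with 109, and chromosome 1, with 96.

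The longest and richest stretch of the full lists lay at chr11:35057480-35167239 and held 22 regions over 109.8 kb. Its rank depends on the lists: with all lists cut to 57154 peaks it held 15 regions, against 16 at chr1:94146281-94225129 and 16 at chr19:45922712-46012807, and from control 2 alone it held 23, as did the stretches at chr1:23852303-23946606 and chr17:8022109-8126600. The 2 libraries of the KOPN-8 clone called 21 and 20 of these 22 regions. The 697 clone called 7 and 6 and the 697 controls 7 and 9, and the counts of both arms of 697 overlapped. A single member, at chr11:35120511-35120754, was called in neither clone library, and its percentiles in the KOPN-8 controls were 40.0 and 27.3. Along the stretch, 5 members were called in all 4 lists of 697, 12 in none and 5 in 1 to 3. Its strongest member, at chr11:35166792-35167239, was among the 5, its fold being 12.2 and 12.2 in the KOPN-8 clone, 11.7 and 10.5 in the KOPN-8 controls, 15.02 and 16.78 in the 697 clone and 13.8 and 13.3 in the 697 controls. The member at chr11:35160409-35160897 was also strong in KOPN-8, with percentiles of 79.1 and 79.5 in the clone and 84.6 and 78.6 in the controls, and was called in no list of 697. Folds and percentiles are relative to each list and are set side by side here as ranks, not as amounts.

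Next in number of regions came chr1:94146281-94225129 with 20 regions and chr1:23852303-23946606 with 19. Of the 20 regions of the first, the KOPN-8 clone called 19 and 17, the 697 clone 11 and 11, and the 697 controls 11 and 13. Of the 19 regions of the second, the KOPN-8 clone called 17 and 15, the 697 clone 7 and 11, and the 697 controls 7 and 8. Both had more regions called in each library of the KOPN-8 clone than in any library of 697, and the counts of the 697 clone and its controls overlapped.

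3 stretches held 18 regions each. At chr17:8022109-8126600 the KOPN-8 clone called 14 and 16, the 697 clone 12 and 16 and the 697 controls 10 and 10. At chr17:75361759-75462032 the KOPN-8 clone called 16 and 15, the 697 clone 10 and 11 and the 697 controls 7 and 11. At chr19:45922712-46012807 both libraries of the KOPN-8 clone called all 18, while the 697 clone called 12 and 13 and the 697 controls 5 and 10. In the 8022109 stretch and in the one on chromosome 19 the libraries of the 697 clone lay above both 697 controls, and in the other stretch on chromosome 17 the arms overlapped.

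The remaining stretches of the 10 richest were at chr11:95906684-96001218 and at chr3:151901296-151987536, with 16 regions each, and at chr15:67357361-67439789 and chr3:30640231-30711242, with 15 each. The KOPN-8 clone called 13 to 15 of the regions of each of them in each library, the 697 clone 8 to 12 and the 697 controls 6 to 12. On chromosome 15 the strongest member, at chr15:67383594-67383923, was called in the KOPN-8 clone with folds of 6.80 and 4.93 and in the KOPN-8 controls with folds of 6.75 and 6.61, and in no list of 697. It led narrowly, with control percentiles of 61.4 and 56.6 against 68.1 and 54.8 at chr15:67357361-67358472. That member stood higher in the KOPN-8 clone, at 77.8 and 73.0 against 59.3 and 33.6, and was called in every list of 697.

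Most regions of the stretches were called again in the SETD2 clone of KOPN-8. Its libraries called 6846 and 6754 of the 7426 members, or 92.2% and 91.0%, and both libraries called 6528 (87.9%). Over all 52036 regions called in both controls, 84.9% were called in both clone libraries. In neither clone library were 354 members (4.77%), against 6.45% of all regions, and 544 (7.33%, against 8.70% of all regions) were called in 1 of the 2. The controls call every member by the rule, so a lower number in the clone follows in part from the choice, and no test of the clone against its controls was made on these counts. The shares rest on both control lists: with stretches built from control 2 or control 1 alone, 80.9% and 78.4% of members were called in both clone libraries and 9.53% and 11.2% in neither.

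Members that the clone lacked were weak already in the controls. Those in neither clone library had a median smaller percentile of 10.5 and were 280.5 bp wide at the median. Those in 1 clone library had values of 14.5 and 297 bp, and those in both 48.2 and 448 bp. The strongest member of a stretch was called in both clone libraries in 1157 of 1161 stretches, and the weakest in 808 (69.6%). Other regions went the same way. The clone libraries called 67.3% and 66.1% of others in the weakest of 5 classes of the smaller percentile, and 99.9% and 99.9% in the strongest. For members the shares were 80.6% and 77.8% in the weakest class and 99.8% and 99.9% in the strongest. By position within the stretch the shares were close: both clone libraries called 88.0% of first and last regions and 87.9% of inner ones.

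By stretch, 555 of 1161 (47.8%) had every member called in both clone libraries, and 879 (75.7%) had every member called in at least 1. A further 220 lacked exactly 1 member in both clone lists, and 62 lacked 2 or more. In 17 stretches under 50% of the members were called in both clone libraries. Of the 6869 regions called in both clone lists within the stretches, 145 (2.11%) overlapped no peak of either control, against 6.74% of 45301 regions outside them. The stretches were defined by control peaks, so a lower share inside them follows in part from the choice.

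**Figure D2:**
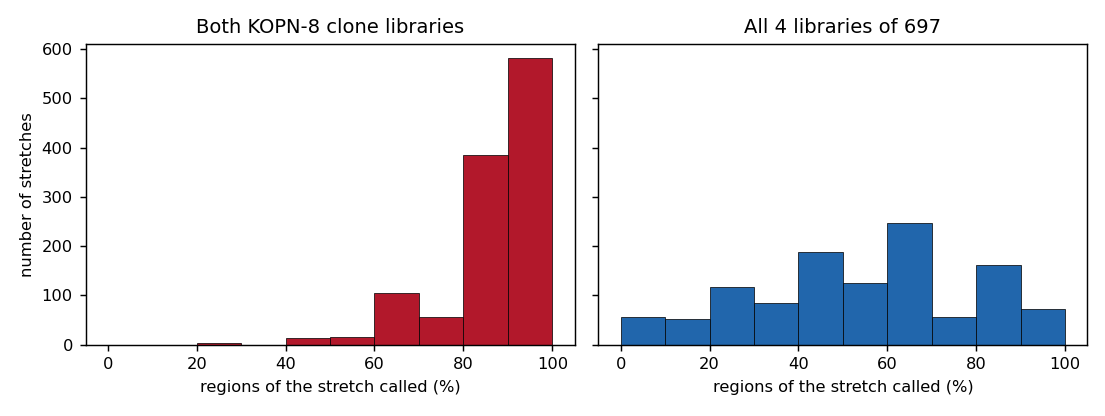
The number of stretches is plotted against the percentage of their regions called in both libraries of the KOPN-8 clone (left) and in all 4 libraries of 697 (right), in steps of 10%. In the KOPN-8 clone the stretches pile up at the upper end, where 555 have every region, and in 697 they spread over the whole range, from 57 with 0 to 72 with every region.

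When the same rule was run on the 2 lists of the KOPN-8 clone it gave 1258 stretches. Of the 1161 control stretches, 867 (74.7%) touched one of these, and of the 1258 clone stretches 866 (68.8%) touched a control stretch. The 294 control stretches that touched none were mostly of the smallest size: 220 of them (74.8%) had 5 members, against 35.6% of the rest. The clone still had between 1 and 8 regions of its own in these 294, with a median of 4, and in 169 it had exactly 4, 1 short of the minimum. Set the other way round, with stretches built from the clone and members looked up in the controls, 84.5% of 8203 members were called in both controls, against 84.4% of the other regions, and 6.27% in neither, against 6.10%. The higher share of members than of other regions called again, 87.9% against 84.3%, was therefore seen from the controls to the clone and not from the clone to the controls.

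The 10 stretches with the lowest share of members called in both clone libraries all held 5 regions, and 7 of them were no longer stretches with all lists cut to 57154 peaks. The KOPN-8 clone called 3 and 1 of 5 at chr20:19404405-19434969, 2 and 1 of 5 at chr6:81232711-81252448 and 1 and 1 of 5 at chr5:134758965-134773580. The stretch on chromosome 20 was called in no list of 697. Its first member, at chr20:19404405-19404816, had percentiles of 2.80 and 31.9 in the clone against 79.8 and 78.5 in the KOPN-8 controls, and the clone lacked the members at chr20:19421661-19422154 and at chr20:19434592-19434969, which had percentiles between 51.8 and 62.6 in the controls. On chromosome 5, by contrast, the 4 members that the clone lacked had percentiles between 5.96 and 44.7 in the controls.

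In the other 7 of these stretches both clone libraries called 2 of 5. They lay at chr9:16254732-16290501, chr6:74423519-74457455, chr13:71403845-71434839, chr11:92414745-92440762, chr12:124702011-124725309, chr7:16095320-16118019 and chr1:229159383-229181858. On chromosome 9 even the strongest member, at chr9:16277512-16277895, whose control folds were 10.6 and 11.4, was in neither clone list. On chromosome 11 the strongest member, at chr11:92440302-92440762, reached a fold of 3.89 and 5.37 in the clone against 13.95 and 12.50 in the controls. On chromosome 13 the first member, at chr13:71403845-71404496, stayed among the strongest peaks of every list, with percentiles of 98.0 and 98.6 in the clone and 98.2 and 98.8 in the controls, while 3 of its 4 neighbours were in neither clone list. The other neighbour, at chr13:71423275-71423769, had percentiles of 41.2 and 61.6 in the clone and 89.8 and 89.0 in the controls. On chromosome 7 the 697 clone called 5 and 5 of the 5 regions and the 697 controls 4 and 4, more than the 2 and 3 of the KOPN-8 clone.

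Chromosomes 8 and 13 had the largest shares of regions missing from the clone, and stretches took part in this to a smaller degree. On chromosome 8, which had 70 stretches, 6.68% of 449 members were in neither clone library, against 14.1% of the other regions and 13.1% of all regions of that chromosome. On chromosome 13, with 34 stretches, the shares were 9.78% of 225 members, 14.2% of the others and 13.6% of all. With both chromosomes left out, 4.47% of 6752 members and 5.95% of the others were in neither clone library, so the lower share in members was present elsewhere too. It was lower in members than in others on 19 of 22 autosomes. The exceptions were chromosome 16, at 6.02% against 3.43%, chromosome 7, at 5.90% against 4.99%, and chromosome 19, at 3.27% against 3.25%.

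In 697 the stretches of KOPN-8 were thinned out, only slightly more than all regions called in both KOPN-8 controls. Few were empty, and no like share for other groups of regions was computed. The libraries of the 697 clone called 4590 and 5024 members (61.8% and 67.7%) and the 697 controls 4164 and 4647 (56.1% and 62.6%). Both libraries of the 697 clone called 4452 members (60.0%), against 62.5% of all regions called in both KOPN-8 controls, and both 697 controls called 4004 (53.9%), against 57.6%. All 4 libraries of 697 called 3857 members (51.9%, against 55.2% of all regions) and none called 2099 (28.3%, against 25.6%). The KOPN-8 clone called 6800 ± 65.1 members (SD, n = 2), the 697 clone 4807 ± 307 (n = 2) and the 697 controls 4406 ± 342 (n = 2). The KOPN-8 clone exceeded the 4 libraries of 697 by 2194 regions on average, with no overlap (exact permutation, two-sided p = 0.0667, the smallest that 2 against 4 libraries can give). A gap in this direction is built into the choice, since the members were selected in KOPN-8. The p-value is therefore not evidence about the stretches.

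Within 697 the libraries of the 2 arms overlapped in the full lists. The 697 clone called on average 401.5 members more than its controls, beside SDs of 307 and 342, and its lower library lay below the higher control (exact permutation, two-sided p = 0.667, smallest possible 0.333, n = 2 per group). In percentage points of the members this difference of 5.41 was 2.15 without 697 control 1, 2.48 without 697 clone 2, 8.66 without 697 control 2, 8.33 without 697 clone 1 and 2.57 in lists cut to equal length. In the cut lists, with stretches built anew, both libraries of the 697 clone lay above both 697 controls (exact permutation, two-sided p = 0.333, the smallest possible). The stretches took 8.34% and 7.69% of the peaks of the 697 clone's lists and 8.29% and 7.59% of those of the 697 controls, a difference of 0.0718 percentage points (exact permutation, two-sided p = 0.667, n = 2 per group). In lists of equal length this difference was 0.118 points, again without overlap (exact permutation, two-sided p = 0.333, the smallest possible). In the KOPN-8 clone they took 11.4% and 11.6%, and in the KOPN-8 controls, on which they were defined, 11.4% and 12.5%. Of the members, 189 (2.55%) were called in both libraries of the 697 clone and in neither 697 control, against 2.14% of all regions, and 14 (0.189%) showed the opposite pattern, against 0.486%. Of these 189 members 24 lay on chromosome 19, where they made up 7.84% of the members against 6.88% of the other regions.

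Members shared with 697 were the stronger ones in KOPN-8. The median smaller percentile in the KOPN-8 controls was 57.6 for members called in all 4 libraries of 697, 32.2 for those called in 1 to 3 and 25.4 for those called in none, and the median widths were 517, 374 and 343 bp. In the KOPN-8 clone the called members of these 3 classes had median percentiles of 66.3, 47.8 and 41.8 in the first list and 64.9, 44.1 and 38.6 in the other. The strongest member was called in all 4 libraries of 697 in 896 of 1161 stretches (77.2%) and the weakest in 356 (30.7%). Other regions showed the same rise with strength in each library of 697. In 697 control 1, 38.4% of others were called in the weakest of 5 classes of the smaller percentile and 86.7% in the strongest. The shares of members were 35.1% and 85.6%. Members missing in both libraries of the KOPN-8 clone were often absent from 697 as well: 224 of 354 (63.3%) were in no list of 697, against 24.2% of the 6528 members called in both clone libraries. Over all regions of the KOPN-8 controls the shares were 54.7% and 21.5%, so the same pattern was present outside the stretches. Both traits went with low strength, and how much of the relation it accounts for was not tested.

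By stretch, 72 (6.20%) had every member called in all 4 libraries of 697, and 57 (4.91%) had no member so called. In 13 stretches no member was called in any list of 697. The rule that gave 1161 stretches in the KOPN-8 controls gave 926 in the 697 clone and 659 in the 697 controls. Of the 1161, 433 (37.3%) touched a stretch of the 697 clone and 334 (28.8%) one of the 697 controls, while 46.7% of the 926 and 50.7% of the 659 touched a KOPN-8 stretch. The share for the 697 controls was 45.1% from 697 control 2 alone and 34.4% from control 1 alone, so it is not shown to lie below that of the 697 clone. It was 14.5% and 43.3% with gaps of 5000 and 25000 bp and 15.1% with at least 8 regions. No stretch of either 697 group touched 701 of the 1161 (60.4%), and 474 (40.8%) touched a stretch of the KOPN-8 clone and none of 697. Such counts depend on the minimum of 5 and do not mean empty stretches. Of the 827 that touched none of the 697 controls, 186 held exactly 4 regions called in both 697 controls and 62 held 5 or more. Of the 728 that touched none of the 697 clone, 185 held exactly 4 of its regions and 73 held 5 or more. A stretch of KOPN-8 held a median of 5 regions called in both lists of the KOPN-8 clone, 4 called in both lists of the 697 clone and 3 called in both 697 controls, beside the median of 6 in the KOPN-8 controls.

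Of the 13 stretches with no member in any list of 697, the 10 with the most members, and among equals the longest, are named here. The richest was at chr12:10545013-10564351, whose 7 regions were called 7 and 6 times in the KOPN-8 clone. Its strongest member, at chr12:10563856-10564351, had folds of 8.14 and 8.11 in the clone and 8.61 and 7.80 in the controls. All 6 regions at chr3:56807289-56836448 were called in both clone libraries, and the strongest, at chr3:56835525-56836448, had percentiles of 89.3 and 87.9 in the clone and 90.03 and 93.01 in the controls. At chr8:2610301-2635232 the clone called 3 and 5 of 6 regions. These 3 rest on the full lists: with all lists cut to 57154 peaks, none of them was a stretch any more. Of the 10 named for no call in 697, 8 were lost, against 0 of the 10 richest and 1 of the 10 named for calls in all 4 lists of 697. These sets held 5 to 7, 15 to 22 and 6 to 10 regions per stretch. They thus lay at unequal distances from the minimum of 5, and the counts do not compare stretches of like size.

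The other 7 of the 10 named stretches held 5 regions each. All 5 were called in both libraries of the KOPN-8 clone at chr6:109195693-109226222, chr2:145318749-145340732 and chr5:124270804-124288680. In the stretch on chromosome 5 the strongest member, at chr5:124287333-124288208, had folds of 11.2 and 12.5 in the clone and 11.3 and 12.5 in the controls. The clone called 4 and 4 of 5 at chr2:160393520-160420963 and chr2:182227892-182245628, and 3 and 4 of 5 at chr6:119634180-119655171. The last of the 7 was the stretch on chromosome 20 described above, with 3 and 1 of 5. Chromosomes 2 and 6 thus held 5 of the 10 named stretches with no call in 697, and 109 and 73 of all 1161 stretches. With 10 stretches named, a concentration on these chromosomes is not shown.

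At the other end, every member of 10 named stretches was called in all 4 lists of 697. The richest, at chr11:795980-844980, held 10 regions, of which the KOPN-8 clone called 10 and 9. Another, at chr6:26020497-26056891, held 9 regions, all of them called in both libraries of the KOPN-8 clone. None of its members ranked very high: the percentiles of the 9 lay between 34.8 and 79.2 in the KOPN-8 controls and between 36.1 and 81.7 in the clone. The next were at chr2:220360202-220417559 and at chr16:67189283-67226473, with 8 regions each. The 5 with 7 regions were at chr11:66079332-66115366, chr19:36231254-36266865, chr10:49859956-49893604, chr18:57566591-57591100 and chr4:155265891-155289553, and the last, with 6, was at chr22:21983546-22020710. The KOPN-8 clone called every member in both libraries in 9 of these 10. On chromosome 22 which had 9 stretches, 43.9% of the 57 members were in no list of 697, against 27.04% of the other regions there. Chromosome 20 showed the opposite, with 27.7% of members and 42.4% of others in no list of 697. The share was higher in members on 16 of 22 autosomes.

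Before any matching by strength, members were called more often than other regions in the KOPN-8 clone and less often in 697. In the KOPN-8 clone the share called was 3.11 and 2.41 percentage points higher in members than in other regions, at 92.2% and 91.0% against 89.1% and 88.5%. In 697 it was lower in members in all 4 libraries, the difference being -2.84 and -2.76 points in the clone and -4.12 and -4.04 points in the controls. Over the 6 libraries the mean difference was -1.37 points (exact sign-flip permutation, two-sided p = 0.313, smallest possible 0.0313, n = 6), and the libraries of a group share their source. With stretches built from control 2 or control 1 alone the mean was 0.439 or 2.13 points, of the opposite sign. The KOPN-8 clone lay 6.20 points above the 4 libraries of 697 with no overlap (exact permutation, two-sided p = 0.0667, the smallest possible, n = 2 and 4). The stretches were defined in KOPN-8, so part of this gap may follow from the choice. The smaller deficit in the 697 clone than in the 697 controls, 1.28 points, also came without overlap (exact permutation, two-sided p = 0.333, the smallest possible, n = 2 per group). These belong to 8 tests of libraries, not counting their repeats under other settings. Of the 8, 1, given next, reached an unadjusted p under 0.05, and none did after Benjamini-Hochberg adjustment over the 8 (lowest adjusted p = 0.133, exact tests).

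Strength changed this comparison. When the other regions were weighted over 5 classes of the smaller percentile to match the members, members were called more often in all 6 libraries, by 6.99 and 6.45 points in the KOPN-8 clone, by 2.13 and 1.61 points in the 697 clone and by 1.12 and 0.818 points in the 697 controls (mean 3.19 points, exact sign-flip permutation, two-sided p = 0.0313 before adjustment, the smallest possible, n = 6). The libraries of a group share their source, so the 6 are not independent units and this p-value overstates the evidence. The weighted difference was 5.30 points higher in the KOPN-8 clone than in the 4 libraries of 697 (exact permutation, two-sided p = 0.0667, the smallest possible, n = 2 and 4). Part of this gap too may follow from the choice of the stretches in KOPN-8. The largest gap lay among the weakest regions in the KOPN-8 clone, where 80.6% and 77.8% of 2203 members were called against 67.3% and 66.1% of 7880 others. In the same class the 697 clone called 42.1% and 49.5% of members against 43.1% and 51.2% of others, and the 697 controls 35.1% and 41.8% against 38.4% and 45.6%. Among the strongest regions the shares differed little, at 99.8% and 99.9% of members against 99.9% and 99.9% of others in the KOPN-8 clone. With the others weighted by width instead, the sign was again that of the plain comparison, at 3.42 and 2.73 points in the KOPN-8 clone, -1.63 and -1.72 in the 697 clone and -2.78 and -2.89 in the 697 controls. A call needed 1 shared bp, so 1 wide peak can call 2 regions that lie close together, as members do by the rule. The member at chr1:94216174-94216379 had control percentiles of 10.4 and 8.19. In the first list of the KOPN-8 clone it had 78.3, the same as its neighbour at chr1:94216478-94216944. How much this adds to the share of members called was not tested.

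**Figure D3:**
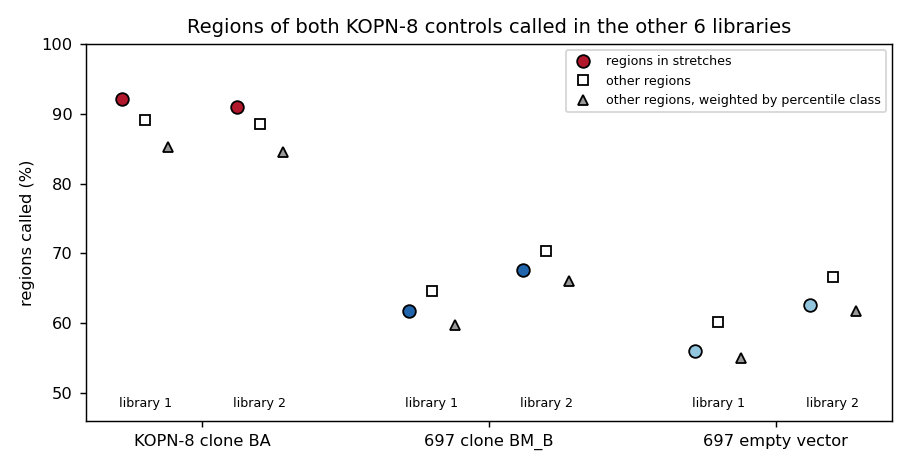
For each of the 6 libraries that the rule did not use, the vertical axis, which starts at 46%, gives the percentage of regions called among regions in stretches (circles), other regions (squares) and other regions weighted by percentile class (triangles). Circles lie above squares in the KOPN-8 clone and below them in 697, and above triangles in all 6 libraries.

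The cut at 5 regions did not mark a step. The share called in both libraries of the KOPN-8 clone was 82.3% for regions alone, 85.1% in groups of 2 and 87.1% in groups of 3, and showed no further trend: it was 87.2% in groups of 4, 86.5% in groups of 5, 89.2% in groups of 6 to 7, 88.5% in groups of 8 to 10 and 87.3% in groups of 11 or more. The share called in all 4 libraries of 697 was, in the same order of 8 classes, 57.6%, 54.6%, 54.4%, 52.3%, 52.2%, 51.6%, 52.6% and 50.4%. The share in no list of 697 was 24.1%, 26.0%, 25.6%, 27.4%, 27.9%, 28.2%, 28.2% and 30.2%. Groups of 4, just outside the rule, and groups of 5, just inside it, had close values in all 3 measures.

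**Figure D4:**
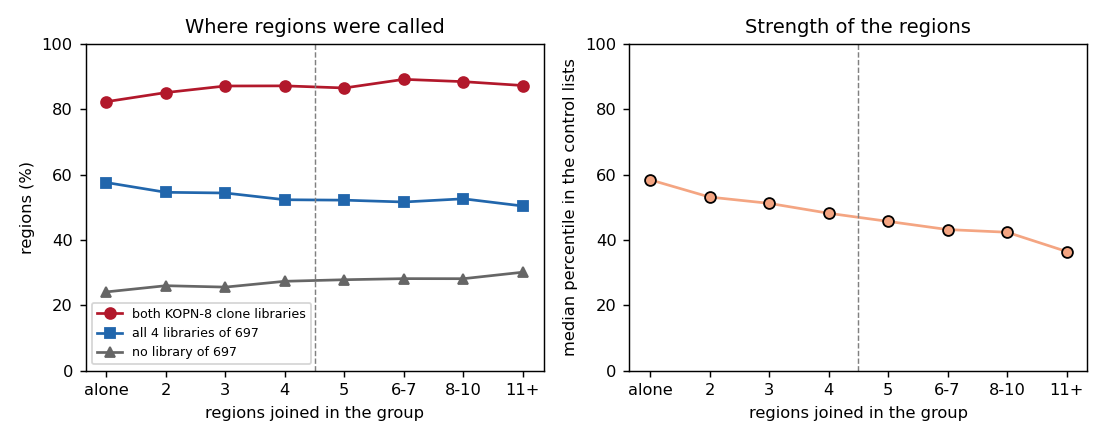
Regions called in both KOPN-8 controls are classed by the number of regions joined in their group, with the rule's minimum at the dashed line. The left panel gives the percentage called in both KOPN-8 clone libraries, in all 4 and in none of the libraries of 697, and the right panel the median smaller percentile in the control lists, which falls from 58.4 to 36.5.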

How the data were processed

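Each library came with 1 deposited list of peaks. The submitters' processing notes name Bowtie2, MACS2 and the build hg19. Versions, settings, the handling of duplicates and any shift of reads for the transposase: not given in the sources used here. For each peak, the value that the authors deposited was read from its range and grid as a fold over background, a linear ratio, and served only to rank peaks within a list.

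Regions, stretches and calls (1 shared bp) were computed with Python 3.11.15 and NumPy 2.4.6, and the code was tested on simulated lists. Libraries were compared by exact permutation or sign-flip tests at a threshold of 0.05. Stretches were named as the 10 with the most members, the 10 least called in the KOPN-8 clone, and the 10 least and the 10 most called in 697, which gave 39 stretches. Members, lists and alternatives were chosen with earlier results of these data known. Without an hg19 annotation, gene lists and markers were not used and no sequence is shown. Same-numbered libraries share only a number.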

Additional observations from a re-analysis of the deposited data

How the results depend on the processing

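The number of stretches rested on the rule and on list length. It was 117 with gaps of at most 5000 bp, 2496 with 25000 bp, 2197 with at least 4 regions, 239 with at least 8, 66 in the strongest 50% of each list and 681 with all lists cut to 57154 peaks, and 1161 to 1947 with 1 library left out. Of the 39 named stretches, 16 had no stretch left in lists of equal length and 34 in the strongest 50%.

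The share of members called in both KOPN-8 clone libraries was 86.2% in the strongest 50%, 85.9% with calls covering 50% of a region, 84.5% with stretches built from the clone and 78.4% to 92.2% with 1 library left out. The share in neither was 4.25% in equal lists, 5.41% with 50% cover, 6.27% with stretches built from the clone and 4.77% to 11.2% with 1 library left out, highest without KOPN-8 control 2. The share called in both 697 controls was 56.2% and 55.4% with gaps of 5000 and 25000 bp, 58.0% in equal lists, 48.05% with 50% cover and 47.5% to 62.6% with 1 library left out. Control stretches touched a clone stretch in 55.6% and 82.5% with these gaps, 69.0% with at least 8 regions, 59.1% in the strongest 50%, 71.2% in equal lists and 54.3% to 87.2% with 1 library left out. Leaving out a library loosens the rule to 1 list.

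The mean difference between members and others turned to 3.19 and 3.67 points with 5 and 20 classes of percentile (each exact sign-flip p = 0.0313, over libraries that share their source within a group). Unweighted, it ranged from -2.27 to 2.13 points with 1 library left out, above 0 without KOPN-8 control 1 (0.439) or 2 (2.13). The 697 difference in the share of peaks within stretches was -0.0224 points with gaps of 5000 bp, -0.0144 in the strongest 50% and -0.276 to 0.419 with 1 library left out, below 0 without 697 control 2 (-0.276) or 697 clone 1 (-0.250). With libraries paired by replicate number as a block it was 0.0718 points (exact sign-flip p = 0.5, the smallest possible). The causes were not tested. The settings with width, 20 classes, stretches of the clone and chromosomes left out were chosen after seeing the data. With read depth unknown, a region without a call is not shown to be closed.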
